A study of Mus musculus with 9 samples.

Results

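The miR-29 family was followed in small RNA libraries of mouse atrial appendages. Its members were the 4 hairpin precursors mmu-mir-29a, mmu-mir-29b-1, mmu-mir-29b-2 and mmu-mir-29c, taken by name from the miRBase annotation, and their genome-matched and unmatched reads were summed. They are 4 of 661 miRNA precursors and of 996 small RNA features listed in the 9 libraries. There were 3 groups of C57BL/6 mice with 3 libraries each, and the labels name no transgene or mutation in any group. The curcumin group was 18 months old and had been given 100 mg/kg curcumin daily in non-fat skim milk between the ages of 12 and 18 months. The old group was 18 months old and the young group 5 months old, and both are labelled as without curcumin; whether they were given milk alone is not stated in the labels. The libraries were made by PANDORA-seq, in which the demethylase AlkB and T4 polynucleotide kinase act on the RNA first, so that fragments with modified bases or unusual ends can also be ligated and read.

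A miRNA is cut from a hairpin precursor and guides the silencing machinery to messenger RNAs that pair with its seed, the bases near its 5′ end. The miR-29 family is known for repressing extracellular matrix genes, among them those of fibrillar collagens, fibrillin and elastin. In mouse hearts it is known to be expressed in fibroblasts as well as muscle cells and to fall near the scar after infarction. Curcumin is a plant polyphenol studied for anti-inflammatory and antifibrotic actions. Collagen and other messenger RNAs were not analysed here, so the levels below are those of the miRNAs and not of their targets.

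The mature sequences are shown because they set what a read can tell about the members. Both miR-29b precursors give one and the same 3′ arm, so the family has 3 distinct 3′ arms. They are printed 5′ to 3′ from RefSeq (GRCm38.p6), with the seed, bases 2 to 8, in capitals.
mmu-miR-29a-3p: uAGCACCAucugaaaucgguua
mmu-miR-29b-3p: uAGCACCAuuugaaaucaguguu
mmu-miR-29c-3p: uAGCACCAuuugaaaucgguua
All 3 arms share the seed, and of 1738 mature mouse entries in the RefSeq table only the 4 of this family carry it. Counting positions from 1 at the 5′ end, miR-29a-3p and miR-29c-3p, both of 22 bases, differ by C10U alone. The miR-29b-3p arm of 23 bases differs from miR-29c-3p by G18A, U21G and A22U within the shared length, so both begin with the same 17 bases.

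The hairpins lie in 2 pairs. On chromosome 6, Mir29a (31062660 to 31062747) and Mir29b-1 (31063023 to 31063093) stand on the minus strand with 275 bases between them. On chromosome 1, Mir29b-2 (195037040 to 195037120) and Mir29c (195037547 to 195037634) stand on the plus strand with 426 bases between them. In the GENCODE vM21 annotation the chromosome 1 pair lies in an exon of the noncoding gene A330023F24Rik on the same strand and, on the opposite strand, in a UTR exon of the protein-coding gene Cd46. Mir29b-1 overlaps the long noncoding gene Gm27019 by 2 bases, and Mir29a overlaps no other annotated gene. The 5′ arms of the 2 miR-29b hairpins are given here, again with bases 2 to 8 in capitals, because only reads outside the common 3′ arm can tell these loci apart.
mmu-miR-29b-1-5p: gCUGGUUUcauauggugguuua
mmu-miR-29b-2-5p: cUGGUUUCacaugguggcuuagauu
The longest run that the hairpins share is 25 bases, the whole 3′ arm and the 2 bases before it. The deposited value is given per hairpin, so reads of the 5′ and 3′ arms could not be separated.

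The libraries held 12899427 to 19707803 clean reads, of which 65.0% to 73.7% matched the genome. Reads assigned to miRNAs numbered 210212 to 918466 per library, only 1.23% to 4.66% of the clean reads. That percentage was 3.21, 4.22 and 3.53 in the curcumin libraries, 3.32, 1.23 and 2.37 in the old libraries, and 4.66, 1.34 and 1.88 in the young libraries, each in the order of the replicate numbers 1 to 3 used for all values below. Each level is therefore given as reads per 1000000 clean reads (clean RPM) and as reads per 1000000 miRNA reads (miRNA RPM). The muscle miRNA miR-1a and the endothelial miR-126a were abundant in every library. Of the other listed muscle miRNAs, miR-499 and miR-208b reached at most 0.406 and 0.0965 CPM (counts per 1000000, scaled by TMM). The markers of liver, neurons and epithelium summed to at most 4.97 CPM in any library. Among them, 3 of the 6 neuronal precursors were at 0 after rounding in every library. No 2 libraries held identical values. The design text speaks of 3 mice per group, but the labels do not tie a library to a mouse, so the p-values below measure the spread between these libraries.

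The 3 libraries numbered 1 stood apart in the family from the other 6. Their miR-29 total was 28492 to 32311 miRNA RPM, against 13526 to 26749 in the libraries numbered 2 or 3. The ratio of miR-29c to miR-29a reads was 0.515 in the curcumin library numbered 1, 0.534 in the old and 0.682 in the young one, against 0.368 to 0.457 in the other 6. On the miRNA scale miR-29a and miR-29c were higher in all 3 libraries numbered 1 than in any other, as were 6.22% of the 209 tested miRNAs. The libraries numbered 1 also stood apart outside the family, in the share of clean reads that matched the genome. That share was 72.7% in the curcumin, 72.2% in the old and 73.7% in the young library numbered 1, against 65.0% to 68.3% in the other 6. The difference thus concerns whole libraries and runs through all 3 groups. Its cause was not tested, and the labels do not say what libraries of one number have in common. Values are given with all 9 libraries and also without these 3. They hold the highest miR-29 total of each group in miRNA RPM, so what remains without them was chosen with the miR-29 levels known and is given as a description of 6 libraries, not as an independent test.

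In every library miR-29a had the most reads, followed by miR-29c, with each miR-29b precursor far below. Among all precursors in a library miR-29a ranked between 5 and 22 by reads, and miR-29c between 11 and 37. The ranks were 48 to 67 for miR-29b-1 and 49 to 65 for miR-29b-2. None of the 4 had an unmatched read in any library.

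miR-29a had 10090, 11719 and 6614 reads in the curcumin libraries, 8674, 2150 and 4828 in the old libraries, and 15355, 2219 and 1956 in the young libraries. In miRNA RPM these were 17977, 16062 and 13134 in curcumin, 16206, 10096 and 12187 in old, and 16718, 10556 and 8049 in young libraries. The curcumin libraries lay in the upper part of the range, but the old and young libraries numbered 1 reached as high, so the groups overlapped. The means in miRNA RPM were 15724 ± 2439 with curcumin, 12830 ± 3105 in old and 11774 ± 4461 in young libraries (SD, n = 3 each).

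miR-29c had 5201, 5352 and 2675 reads in the curcumin libraries, 4631, 790 and 1925 in the old libraries, and 10477, 983 and 790 in the young libraries. Relative to the miRNA reads of each library these were 9266, 7335 and 5311 miRNA RPM in curcumin, 8652, 3711 and 4859 in old, and 11407, 4676 and 3249 in young libraries. This member varied most. The young library numbered 1 was the highest of all and another young library the lowest, so the young group alone spanned the whole range.

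miR-29b-1 had 884, 1219 and 608 reads in the curcumin libraries, 975, 263 and 512 in the old libraries, and 1913, 245 and 276 in the young libraries. miR-29b-2 had 894, 1227 and 598 reads in the curcumin libraries, 970, 272 and 506 in the old libraries, and 1932, 252 and 265 in the young libraries. The 2 precursors differed by 5 to 19 reads in a library, 0.257% to 2.03% of their sum. Their values were whole numbers in only 2 of 9 libraries each, within 0.005, against 9 of 9 for miR-29a and 4 of 9 for miR-29c. Fractional values would arise if a read that fits several hairpins were divided among them, but the counting tool is not given in the sources used here. With identical 3′ arms and nearly equal values, the miR-29b precursors are read here as 1 quantity. Summed over both loci, miR-29b had 2973 ± 508 miRNA RPM with curcumin, 2905 ± 632 in old and 2926 ± 1094 in young libraries (SD, n = 3 each), 3 means that lay far within the spread of each group. In miRNA RPM 0 of the 4 members were separate in any of the 3 comparisons of groups. Of the 209 tested miRNAs, 4.31% were higher in every curcumin than in every old library and 14.8% lower, 4.31% higher and 10% lower in curcumin than in young libraries, and 4.31% higher and 3.35% lower in old than in young libraries.

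**Figure D1:**
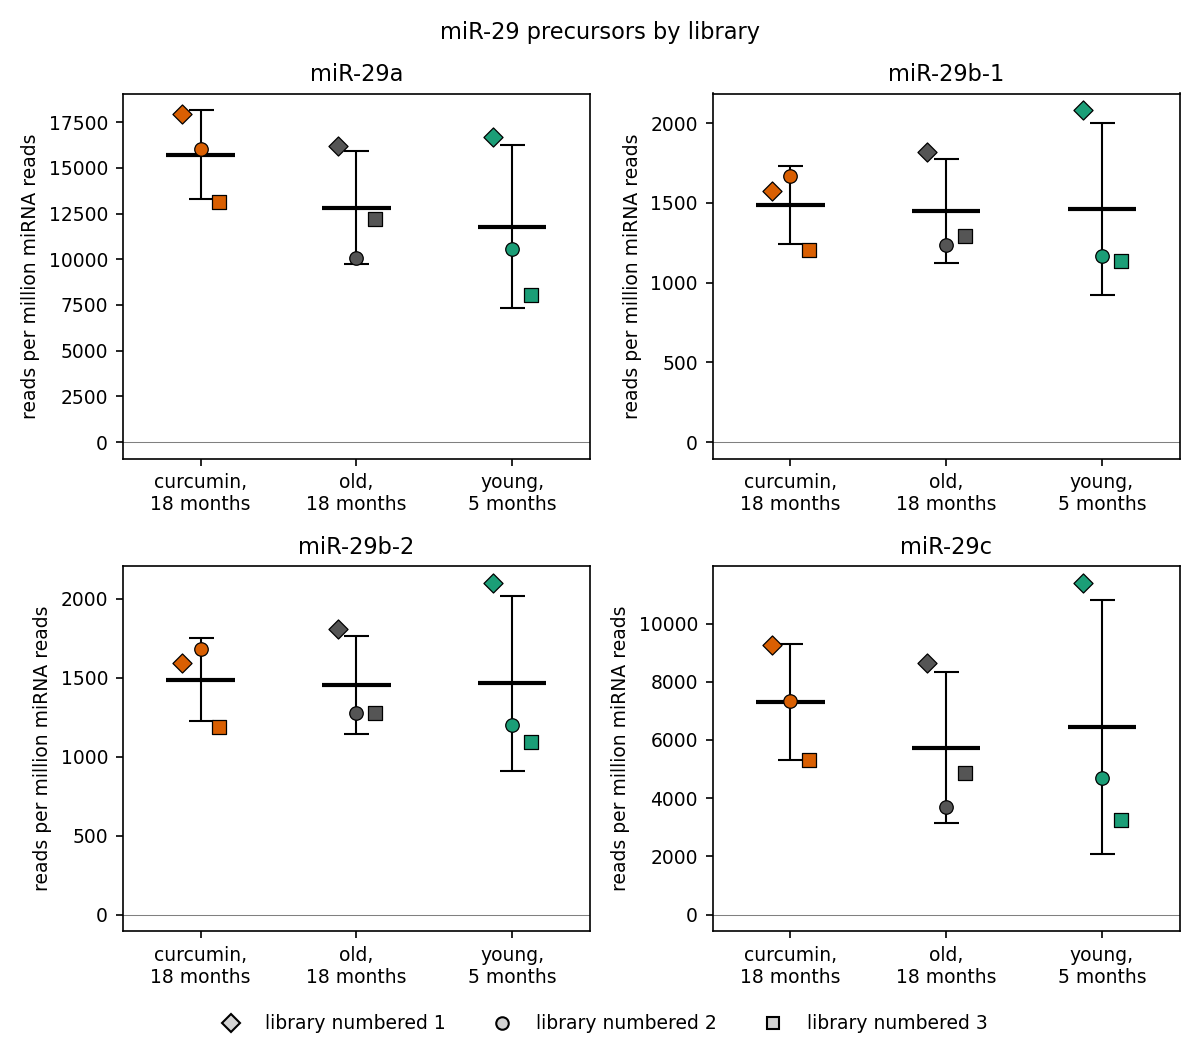
Reads of each miR-29 precursor in miRNA RPM (linear axes from 0) in 3 curcumin, 3 old and 3 young libraries. Points are libraries, with the marker shape giving the replicate number, bars are means and whiskers are SD. The groups overlap for all 4 precursors, and the diamonds, the libraries numbered 1, are the highest points of the old and young groups in each panel.

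The family total was 17070, 19517 and 10495 reads in the curcumin libraries, 15250, 3475 and 7771 in the old libraries, and 29677, 3699 and 3287 in the young libraries. In clean RPM it was 975, 1129 and 735 with curcumin, 946, 200.3 and 464 in old libraries, and 1506, 236 and 255 in young libraries. In miRNA RPM it was 30413, 26749 and 20841 with curcumin, 28492, 16317 and 19617 in old libraries, and 32311, 17597 and 13526 in young libraries. In clean RPM all 3 curcumin libraries were high, and the old and young groups each joined 1 high library with 2 lower ones. In miRNA RPM the curcumin library numbered 3 lay close to the old library numbered 3. Counting error was small beside this spread. The 95% Wilson interval of the family total reached at most 3.48% of the value to either side, and that of a single member at most 13.3%, covering counting error only.

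With curcumin the family averaged 1.76 times the old level in clean RPM, 946 ± 199 against 537 ± 378 (SD, n = 3 each, exact two-sided permutation test p = 0.2). The ratio in miRNA RPM was 1.21, with 26001 ± 4830 in curcumin and 21475 ± 6297 in old libraries (exact two-sided permutation test p = 0.4, n = 3 each). The groups overlapped on both scales, and 3 against 3 cannot give a p below 0.1. The ratio was thus closer to 1 within the miRNA class, whose share of the clean reads is given above. Without the libraries numbered 1 the ratios were 2.80 in clean RPM, with 932 in curcumin and 332 in old libraries, and 1.32 in miRNA RPM, with 23795 in curcumin and 17967 in old libraries (means of 2).

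Against young libraries, the curcumin mean was 1.42 times the young mean of 666 ± 728 clean RPM (exact permutation p = 0.6, n = 3 each). It was 1.23 times the young mean of 21145 ± 9883 miRNA RPM (exact permutation p = 0.5, n = 3 each). The old mean was 0.806 times the young mean in clean RPM (exact permutation p = 0.8, n = 3 each) and 1.02 times in miRNA RPM (exact permutation p = 1.0, n = 3 each). In all 42 tests of the family and its members, the p adjusted by Benjamini-Hochberg was 1. Without the libraries numbered 1 the curcumin mean was 3.80 times the young mean in clean RPM and 1.53 times in miRNA RPM, where the young mean was 15561 (means of 2). The old-to-young direction in clean RPM turned without the libraries numbered 1, at 332 clean RPM in old and 246 in young libraries (means of 2).

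**Figure D2:**
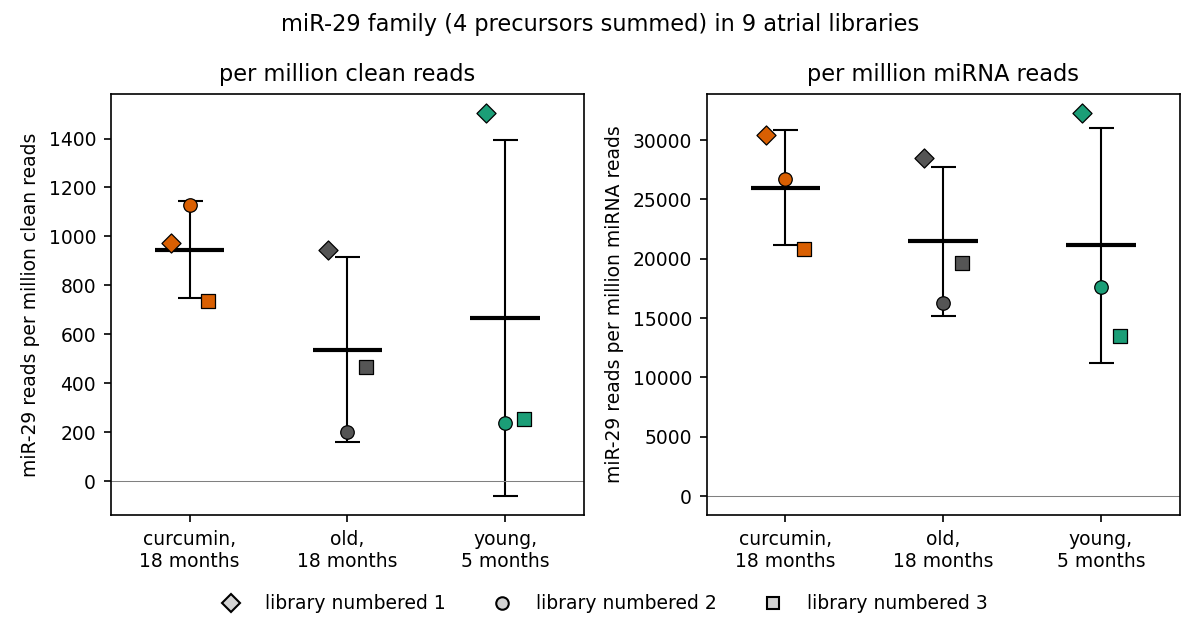
Sum of the 4 miR-29 precursors in 3 curcumin, 3 old and 3 young libraries, in clean RPM on the left and in miRNA RPM on the right. Points are libraries by replicate number, bars are means and whiskers are SD. The old and young groups each hold a library numbered 1 within or above the curcumin range, and the curcumin mean is 1.76 times the old mean on the left and 1.21 times on the right.

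The same comparisons were read from an edgeR quasi-likelihood fit across 520 features, in which all 4 members passed the filter on low counts. No feature was called at an adjusted p of 0.05 in any of the 3 comparisons (0%, 0 of 520 each; 5 features in old against young, 21 in curcumin against old and 19 in curcumin against young had an unadjusted p below that value). DESeq2 called 0, 0 and 1 in the same order, none of them a member. In curcumin against old libraries the log2 fold changes were 0.66 for miR-29a (SE 0.57), 0.42 for each miR-29b precursor (SE 0.61 for miR-29b-1 and 0.60 for miR-29b-2) and 0.64 for miR-29c (SE 0.76). Their adjusted p in edgeR was 0.917 for miR-29a and miR-29c and 0.942 for both miR-29b precursors. The median over the 209 tested miRNAs was 0.25 in this comparison, with 161 of them above 0. The 4 values were thus positive like those of most miRNAs, and none exceeded its error by much.

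In curcumin against young libraries the log2 fold changes were 0.65 for miR-29a (SE 0.57), 0.25 for both miR-29b precursors (SE 0.60) and 0.29 for miR-29c (SE 0.75). The smallest adjusted p among them in edgeR was 0.942, and the miRNA median was 0.07. In old against young libraries the values were -0.01 for miR-29a, -0.17 for miR-29b-1, -0.18 for miR-29b-2 and -0.35 for miR-29c, each with an adjusted p of 0.999 in edgeR, beside a miRNA median of -0.15. Both contrasts with the old group use the same old libraries, and both with curcumin the same curcumin libraries, so the 3 sets of values are not independent.

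Leaving out any 1 library gave no call in any comparison. Leaving out the 3 libraries numbered 1 changed the calls for curcumin, with 2 libraries left in each group and with the highest old and young miR-29 totals among those removed. In curcumin against old libraries all 4 members were then called higher, where 14.1% of 519 features were called and 6.55% called higher, and 14.3% of the 210 miRNAs among them. The log2 fold changes were 1.21 for miR-29a (SE 0.29), 1.37 for miR-29c (SE 0.32), 1.03 for miR-29b-1 and 1.02 for miR-29b-2 (SE 0.34 for both). The miRNA median was 0.58 in that fit. Of the 73 features called, 34 were higher and 39 lower with curcumin.

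Under the same exclusion, all 4 members were also called higher in curcumin against young libraries. The highest young miR-29 total was among the values removed, so these calls carry the same limit and are not an independent test. Here 12.9% of the features were called and 7.13% called higher, and 15.7% of the miRNAs were called higher. On the log2 scale the fold changes were 1.57 for miR-29a (SE 0.30), 1.61 for miR-29c (SE 0.33), 1.23 for miR-29b-1 and 1.24 for miR-29b-2. The miRNA median was 0.55 there. Old against young libraries gave no call (0%), with members between 0.19 and 0.36 on the log2 scale and an adjusted p of 0.986 in edgeR.

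The sets of 2 libraries also differed in the miRNA class as a whole. In clean RPM all 4 members were higher in both remaining curcumin libraries than in either old library, as were 75.1% of the 209 tested miRNAs. The same held for all 4 members against the young libraries, where 69.9% of the miRNAs did so. Separation on this scale was therefore common to the class.

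Within the miRNA class the picture was narrower. By miRNA RPM, miR-29a and miR-29c were higher in both remaining curcumin libraries than in either old one, as were 14.4% of the miRNAs, while both miR-29b precursors overlapped. Against young libraries miR-29a, miR-29c and miR-29b-1 were separate, as were 14.8% of the miRNAs. In old against young libraries both miR-29b precursors were higher without overlap, as were 12.4%. For miR-29a the 2 curcumin libraries averaged 1.31 times the old and for miR-29c 1.48 times.

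An edgeR fit of miRNAs alone, also without the libraries numbered 1 and added after the data had been seen, carries the same limit. In curcumin against old libraries miR-29a at 0.68 (SE 0.20) and miR-29c at 0.85 (SE 0.23) on the log2 scale were called higher, where 10.7% of 206 miRNAs were called and 6.31% called higher. miR-29b-1 at 0.49 and miR-29b-2 at 0.47 were not called. In curcumin against young libraries all 4 were called higher, where 13.6% were called and 8.74% called higher, with miR-29a at 1.02, miR-29c at 1.05 and both miR-29b precursors at 0.69. Old against young libraries gave no call of a member. Here TMM scaling was set by the miRNAs themselves, and the miRNA median was 0.04 and 0.00 in the 2 comparisons. With all 9 libraries the fit of miRNAs alone called no miRNA (0%) in any comparison, and miR-29a stood at 0.47 in curcumin against old libraries (SE 0.34, edgeR adjusted p = 0.835).

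**Figure D3:**
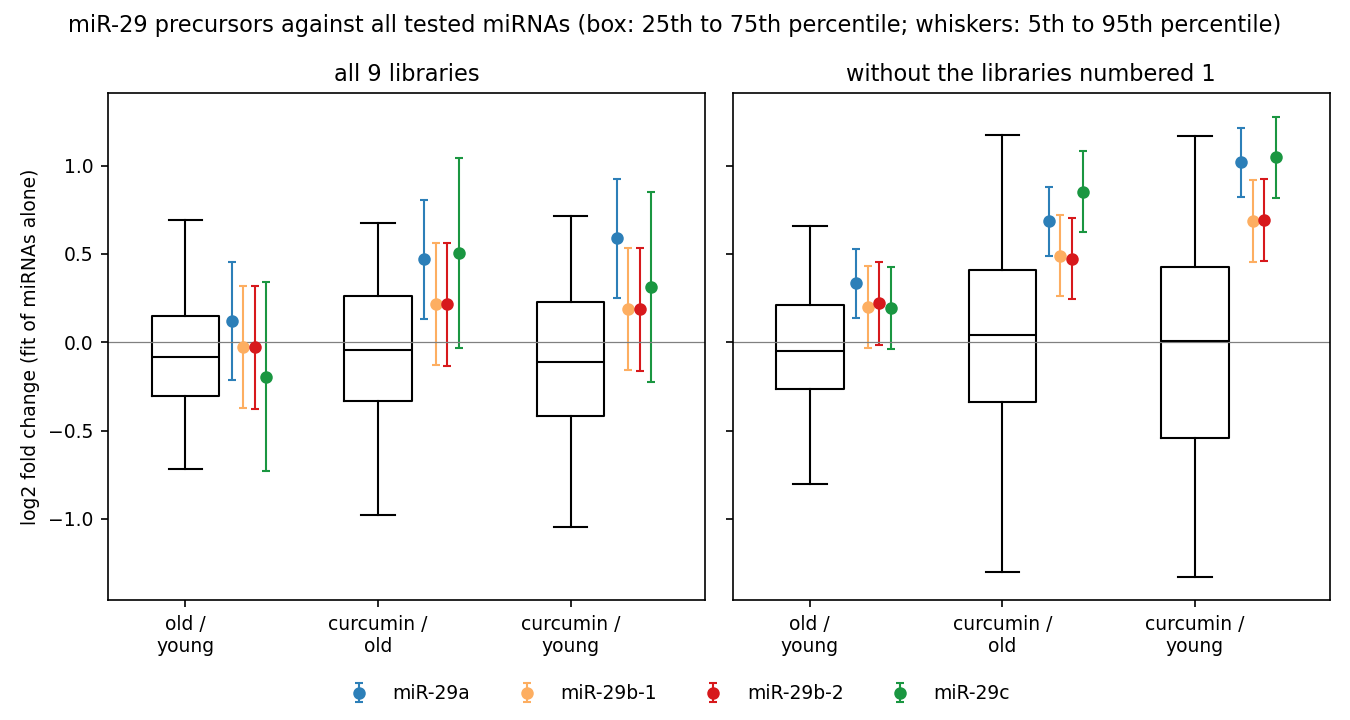
Log2 fold changes of the 4 miR-29 precursors (points, with SE) beside all miRNAs tested (boxes span the 25th to the 75th percentile, whiskers reach from the 5th to the 95th percentile) from edgeR fits of miRNAs alone, with all 9 libraries on the left and without the 3 libraries numbered 1 on the right. In the curcumin comparisons the members lie above the miRNA median in both panels. On the right the errors are smaller, and miR-29a stands at 0.68 against old and 1.02 against young libraries. The right panel leaves out the highest old and young miR-29 totals, so it describes 6 libraries and is not an independent test.

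The makeup of the family depends on no library total. miR-29a made up 60.7% ± 2.04 of the family's reads with curcumin, 60.3% ± 2.96 in old and 57.1% ± 4.63 in young libraries (SD, n = 3 each). miR-29c made up 27.8% ± 2.51 with curcumin, 26.0% ± 3.95 in old and 28.6% ± 5.91 in young libraries. For both shares the groups overlapped in every comparison.

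The miR-29b share was lower with curcumin than in any old or young library. Both loci together made up 10.4%, 12.5% and 11.5% of the family in curcumin libraries, 12.8%, 15.4% and 13.1% in old libraries, and 13.0%, 13.4% and 16.5% in young libraries. The highest curcumin value and the lowest old value were close, and their 95% Wilson intervals of 12.1% to 13.0% and 12.2% to 13.3% overlapped. For each miR-29b precursor the shares reached the smallest p that 3 against 3 allows in both curcumin comparisons (exact two-sided permutation test p = 0.1, n = 3 each), with an adjusted p of 1 over the 42 tests. The difference was -1.11 percentage points for miR-29b-1 and -1.15 for miR-29b-2 against old libraries, and -1.42 and -1.39 against young libraries. Relative to the same miR-29 total, 10.5% of the tested miRNAs were lower in all curcumin than in all old libraries and 9.57% than in all young libraries. The 2 precursors count as 1 observation, since their 3′ arms are identical and their values nearly equal.

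**Figure D4:**
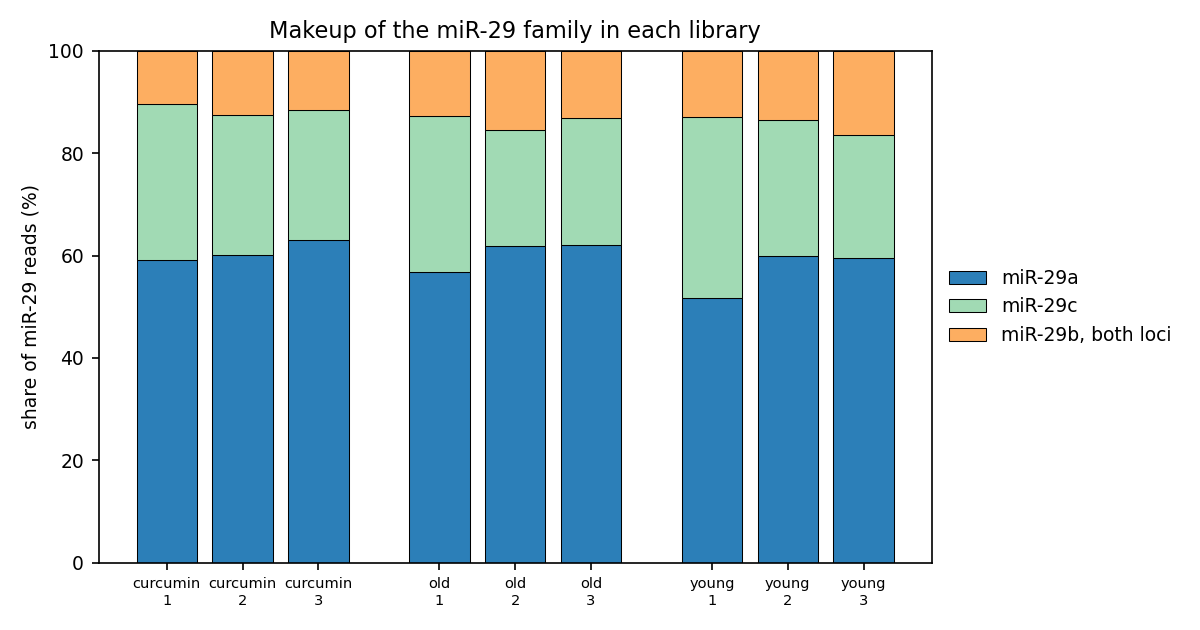
Share of the miR-29 family's reads (%) that belong to miR-29a, miR-29c and both miR-29b loci in each of the 9 libraries, named by group and replicate number. The miR-29b part is 10.4% to 12.5% in curcumin libraries, 12.8% to 15.4% in old and 13.0% to 16.5% in young libraries, and the miR-29c part is widest in the libraries numbered 1.

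In CPM, summed markers of several cell types were, like the family, high in all curcumin libraries. CPM is scaled over all features, so a difference of the miRNA class as a whole enters these sums. In curcumin against old libraries 161 of the 209 tested miRNAs had a log2 fold change above 0 on this scale. The sums are not given in miRNA RPM, so they do not show a rise of these markers within the miRNA class. The 7 muscle precursors, such as miR-1a and miR-133a, of which 5 passed the filter on low counts and none was at 0 in every library, summed to 11903 to 17618 CPM in curcumin, 5179 to 13719 in old and 6201 to 17075 in young libraries. Nearly all of this sum was miR-1a. Its loci miR-1a-1 and miR-1a-2 averaged 5807 CPM each over all libraries, against 186 for each miR-133a locus and 22.1 for miR-208a. The 7 fibroblast and smooth muscle miRNAs, such as miR-143 and miR-199a, all passed the filter and summed to 1037 to 1213 CPM in curcumin, 374 to 1104 in old and 491 to 1151 in young libraries. The endothelial miR-126a stood at 8783 to 9342 CPM with curcumin, 4178 to 9781 in old and 4615 to 10451 in young libraries. In CPM the curcumin libraries lay within or near the upper part of the other groups' ranges for all 3 sums, as they did for miR-29. Not every listed miRNA did so. In curcumin against old libraries miR-145a stood at -0.03 and miR-214 at -0.06 on the log2 scale, beside 0.88 for miR-143. miR-208a averaged 20.2 CPM with curcumin, 19.6 in old and 26.4 in young libraries. The 4 leukocyte miRNAs summed to 108 to 126 CPM in curcumin, 58.4 to 101 in old and 53.0 to 350 in young libraries. Every curcumin library thus lay above every old one in this sum in CPM, with the limit of that scale given above. Taken singly, miR-142a and miR-223 were separate in this way, as were 20 of the 209 tested miRNAs in CPM, while miR-150 and miR-155 overlapped. Such separation depended on the scale. In CPM 8 of the 209 were lower in every curcumin than in every old library, and in miRNA RPM 9 were higher and 31 lower. The 4 red cell miRNAs did not follow this order, with 25.4 to 58.1 CPM in curcumin, 44.0 to 58.5 in old and 55.0 to 281 in young libraries. The upper young values of the leukocyte and red cell sums came from the young library numbered 1, which also held the highest miR-29 total. There miR-142a stood at 263 CPM, against 22.6 and 28.4 in the other young libraries, and miR-451a at 167 CPM, against 4.33 and 16.5. The part of these markers in the miR-29 values was not tested. In whole tissue, fewer cells of a type and less RNA per cell cannot be told apart.

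Other miRNAs linked to cardiac fibrosis were listed as 18 precursors taken as repressed or antifibrotic and 12 taken as profibrotic. These roles were assigned from the literature and were not tested here. Some of these precursors are loci of 1 miRNA. All 30 were tested in the fit with 9 libraries, and none was called (0 of 520 features in each comparison, 0%). In curcumin against old libraries 18 of the 18 precursors listed as repressed or antifibrotic had a value above 0, with a median log2 fold change of 0.42. The same held for 11 of the 12 profibrotic ones, with a median of 0.29. With the loci of 1 miRNA summed, 22 of 23 miRNAs of the whole list were above 0 in this comparison. In curcumin against young libraries the medians were 0.30 and 0.39, and in old against young libraries -0.13 and -0.01, beside the miRNA medians given above. For the whole list the old-to-young median of -0.11 was 0.03 with miRNAs alone, 0.31 without the young library numbered 1 and 0.12 without the old library numbered 2. The curcumin-to-old median of 0.40 was 0.13 with miRNAs alone, where 21 of 29 were above 0, and 0.16 to 0.75 with 1 library left out.

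Of this list the most abundant miRNAs were miR-125b-1, which is known to promote the fibroblast-to-myofibroblast change, and miR-30a, miR-30c-2 and miR-26a-2, known to restrain connective tissue growth factor or collagen. miR-30a averaged 532 ± 74.4 CPM with curcumin, 373 ± 192 in old and 373 ± 159 in young libraries (SD, n = 3 each). miR-125b-1 averaged 526 ± 153 CPM with curcumin, 506 ± 150.1 in old and 465 ± 51.9 in young libraries. In curcumin against old libraries the log2 fold changes were 0.51 for miR-30a, 0.32 for miR-30c-2, 0.41 for miR-26a-2 and 0.06 for miR-125b-1, all with an adjusted p of at least 0.917 in edgeR. Without the libraries numbered 1, 5 of 29 tested precursors of the list were called higher in curcumin against old libraries and 6 of 29 in curcumin against young libraries, beside the 14.3% and 15.7% of all miRNAs given above.

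The miRNAs whose profile over the 9 libraries lay nearest to the family total were miR-101a, miR-322, miR-101b, miR-192 and miR-27b, among 183 candidates. Likeness was the root mean square difference of centred log2 miRNA RPM, and was 0.181 for miR-101a, 0.181 for miR-322, 0.204 for miR-101b, 0.236 for miR-192 and 0.257 for miR-27b, against a median of 0.689. The members themselves stood at 0.0809 for miR-29a, 0.190 for miR-29b-1, 0.185 for miR-29b-2 and 0.189 for miR-29c, though each is part of the total. miR-101a had 5066 miRNA RPM with curcumin, 3454 in old and 3330.1 in young libraries (means, n = 3 each). Between members the difference was smallest for the 2 miR-29b precursors at 0.0316 and largest for miR-29b-1 and miR-29c at 0.332, although miR-29b-1 and miR-29c share 17 bases of the 3′ arm. These profiles share libraries and denominators, and the measure is a description.

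**Figure D5:**
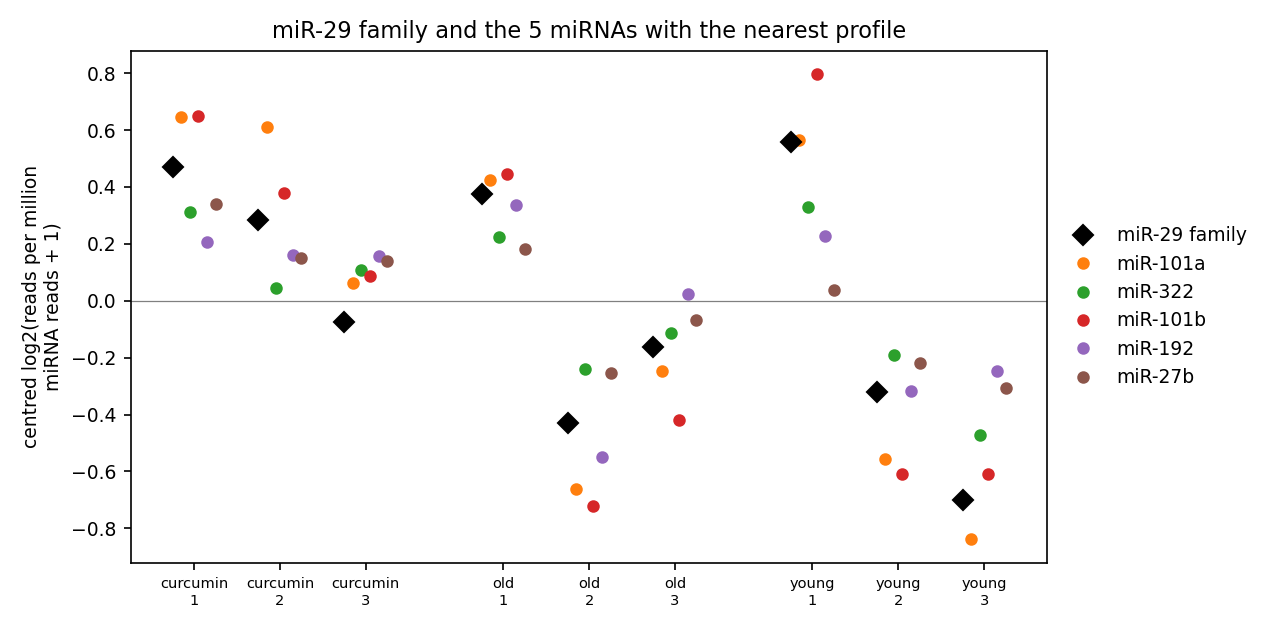
Centred log2 miRNA RPM of the miR-29 family (diamonds) and of the 5 miRNAs with the nearest profile (circles) in the 9 libraries, named by group and replicate number. All 6 lie above their mean in each library numbered 1 and below it in the old library numbered 2 and the young libraries numbered 2 and 3.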

How the data were processed

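PANDORA-seq libraries of 9 atrial appendage samples were used, 3 per group. The authors deposited 1 table per library with estimated counts per annotation, split by match to the genome. Cutadapt 2.5 and the build mm10 are named per the submitters' processing notes; neither the annotation tool nor any use of molecular identifiers is given in the sources used here. Values need not be whole, as if a read that fits several annotations were divided, and they were rounded for the count tests. The 996 features were miRNA precursors, tRNA fragments and RNA classes; the value of a whole tRNA was reduced by that of its ends. edgeR 4.0.16 (TMM, filterByExpr, robust quasi-likelihood fit of all 9 libraries, group only, Benjamini-Hochberg over 520 features) gave the fold changes. Single values were compared by exact permutation tests (scipy 1.17.1). Scaling, filters, DESeq2 1.42.0, limma 3.58.1, a replicate block and left-out libraries were tried. The fits were tested on simulated data. Always named were the 4 members, the up to 4 most abundant miRNAs of the fibrosis list and the 5 miRNAs nearest in profile, taken from those with a mean of at least 10 reads per 1000000 miRNA reads, on log2 values with a pseudocount of 1. Members and lists were chosen with earlier results of these data known.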

Additional observations from a re-analysis of the deposited data

How the results depend on the processing

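The count of called features was 0 in all 3 comparisons in each fit that left out 1 library. It changed with 4 settings. Without the 3 libraries numbered 1 it was 73 in curcumin against old and 67 in curcumin against young libraries; with miRNAs alone in addition, 22 and 28; with miRNAs alone and a replicate block, 1 and 6, none of them a member; with DESeq2, 1 in curcumin against young libraries. The replicate block with all features called 0 in each comparison and put miR-29a at 0.90 in curcumin against old libraries. Same-numbered libraries correlated in their deviations at 0.271 to 0.806 between old and young, 0.193 to 0.330 between curcumin and young and -0.0728 to 0.368 between curcumin and old libraries, over 0.1 in 8 of 9 pairs. Differently numbered ones correlated at -0.726 to 0.543, and the best partner had the same number in 11 of 18 cases. Since not every pair passed, the numbers were not taken to pair the samples.

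Old-to-young directions were not stable. The log2 fold change of miR-29a, -0.01 with 9 libraries, was 0.12 with miRNAs alone, 0.026 with limma-voom, 0.018 with only these 2 groups, 0.086 with the replicate block and 0.18 with both miRNAs alone and the block, where miR-29b-1 and miR-29b-2 were at 0.031 and 0.038. Without the libraries numbered 1 the values were 0.36 for miR-29a, 0.19 for miR-29b-1, 0.21 for miR-29b-2 and 0.24 for miR-29c, and with miRNAs alone in addition 0.33, 0.20, 0.22 and 0.19. Without those libraries the old-minus-young difference in clean RPM was 86.8 for the family, 59.5 for miR-29a, 4.36 for miR-29b-1, 4.61 for miR-29b-2 and 18.3 for miR-29c, and in miRNA RPM 113 for miR-29b-1, 131 for miR-29b-2 and 322 for miR-29c. As means of log2 values, miR-29a was at 0.067 in clean RPM, and miR-29b-1 and miR-29b-2 at 0.026 and 0.034 in miRNA RPM. Without the libraries numbered 1 the miR-29a share differed by -0.467 points in curcumin against old and the miR-29c share by 1.15 points in curcumin against young libraries. The causes were not tested.

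Leaving out 1 library at a time, old-minus-young log2 fold changes ranged from -0.54 to 0.89 for miR-29a, -0.71 to 0.72 for miR-29b-1, -0.71 to 0.74 for miR-29b-2 and -1.14 to 1.03 for miR-29c, with all 4 positive without the young library numbered 1 or without the old library numbered 2. In clean RPM they ranged from -343 to 291 for the family, -151 to 170.1 for miR-29a, -23.8 to 16.9 for miR-29b-1, -23.9 to 17.0 for miR-29b-2 and -148 to 87.3 for miR-29c. In miRNA RPM they ranged from -3479 to 5914 for the family, -807 to 3527 for miR-29a, -198 to 299 for miR-29b-1, -196 to 310.0 for miR-29b-2 and -2301 to 1778 for miR-29c. Shares ranged from -0.662 to 0.316 points for miR-29b-1, -0.697 to 0.235 for miR-29b-2 and -4.98 to 0.661 for miR-29c. In curcumin against old libraries, miR-29b-1 ranged from -73.0 to 221 and miR-29b-2 from -64.2 to 212 in miRNA RPM, and the miR-29a share from -1.27 to 1.35 points. In curcumin against young libraries, the log2 fold change ranged from -0.0040 to 1.11 for miR-29b-1 and -0.047 to 1.63 for miR-29c. In clean RPM the range was -4.69 to 36.0 for miR-29b-1, -4.63 to 36.3 for miR-29b-2 and -32.5 to 203 for miR-29c, in miRNA RPM -139 to 334, -163 to 343 and -737 to 3341 in the same order, and the miR-29c share -3.15 to 2.49 points. The miR-29b shares kept their sign in both curcumin comparisons under each of these.

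Scaling by clean-read totals moved the median log2 fold change of all features by 0.23 in curcumin against old and 0.19 in curcumin against young libraries. The 1.23% to 4.66% of reads that were miRNA, and 3 libraries per group, limit the precision.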
